A study of Nannochloropsis oceanica with 6 samples.

Results

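The 4 small heat shock protein genes NO20G02130, NO20G02150, NO18G01280 and NO08G01140 of Nannochloropsis oceanica strain IMET1, a unicellular oil-rich marine alga, were followed in cultures moved to low CO2 and cultures kept at high CO2. They were chosen by gene ID from a set of 10633 genes, with their fold changes between these groups already known. Their low against high CO2 values are therefore given as a description, without a test. NO20G02130 and NO20G02150 are both described in the deposited tables as Heat shock protein 16, NO18G01280 as 16.9 kDa class I heat shock protein 2, and NO08G01140 as 16.9 kDa class I heat shock protein 1. The Heat shock protein 16 name comes from a match to fission yeast, and the class I names come from matches to rice.

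Poly(A) RNA was sequenced from 6 column reactors, 3 per group, each holding 800 ml of modified f/2 medium with 10 mM Tris at pH 8.2 and started at an OD750 of 1.5. The low CO2 cultures were bubbled with air containing 0.04% CO2 after 1 h at 5% CO2, and the high CO2 cultures stayed at 5% CO2 as the control. Both groups were otherwise the same strain and medium, at 25 °C and 80 ± 5 µmol photons m-2 s-1, and were sampled at 24 h. The replicates were separate reactors, and no heat treatment is named for either group.

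Small heat shock proteins are chaperones that work without ATP. They share an alpha-crystallin domain, assemble into oligomers, and bind proteins that are unfolding, which keeps these from aggregating. The bound proteins are handed to the HSP70 system (HSP70, its DnaJ partners and its GrpE nucleotide exchange factor), helped by the ClpB/HSP100 disaggregase. In plants and algae small heat shock proteins occur in the cytosol and in organelles, and their genes are known targets of heat shock factors.

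The libraries held 4620234 to 6112822 estimated counts each. In each group 1 library stood apart, namely low CO2 replicate 1 and high CO2 replicate 3. Across 9244 genes, 1154 differed by more than 2-fold between low CO2 replicates 1 and 2, against 96 between low CO2 replicates 2 and 3. Likewise 821 genes differed by more than 2-fold between high CO2 replicates 1 and 3, against 192 between high CO2 replicates 1 and 2. Low CO2 replicate 1 was nearer to high CO2 replicates 1 and 2, at 794 and 700 such genes, than to low CO2 replicates 2 and 3, at 1154 and 1093. Member fold changes are given with and without these libraries.

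All 4 genes had lower transcript levels in each low CO2 culture than in any high CO2 culture, measured as FPKM (fragments counted for a gene, scaled to its length and to the size of the library). All 4 passed the filter on low counts. Groups that did not overlap in FPKM with the low CO2 side lower were found for 11.8% of the 9244 genes tested, and with that side higher for 13.6%. A call by edgeR's quasi-likelihood test, an adjusted p below 0.05, was made for 0.898% of genes as lower and 1.22% as higher in low CO2, and 48.6% had a negative fold change. The members were chosen on this contrast, so nothing is read from their count against these shares. As these are bulk cultures, fewer cells with a high level and a lower level in every cell cannot be told apart.

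**Figure D1:**
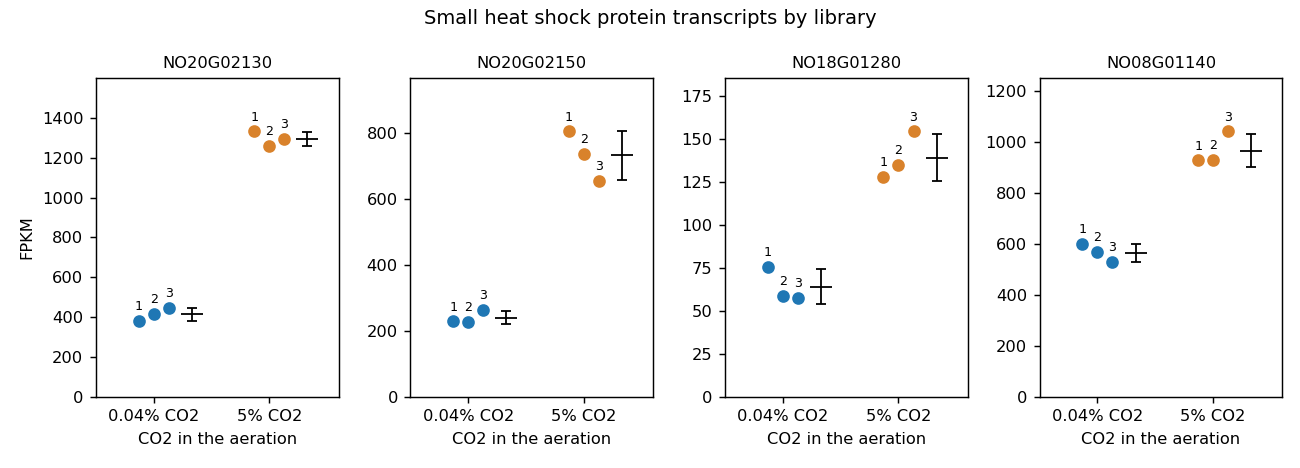
FPKM of the 4 small heat shock protein genes in each low CO2 and each high CO2 library, with 1 point per library and the mean ± SD of each group (n = 3). In each gene the low CO2 points lie below the high CO2 points, from 382 to 448 against 1262 to 1332 FPKM for NO20G02130 and from 528 to 598 against 927 to 1040 FPKM for NO08G01140.

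NO20G02130, a Heat shock protein 16 gene, had 382, 416 and 448 FPKM in low CO2 replicates 1, 2 and 3, against 1332, 1262 and 1295 FPKM in high CO2 replicates 1, 2 and 3. The groups lay far apart, and the libraries of each group were close together. The means were 415 ± 32.9 FPKM in low CO2 and 1296 ± 35.3 FPKM in high CO2 (SD, n = 3 each). Its fitted log2 fold change, low over high CO2, was -1.82 ± 0.11 (SE), a level 3.53-fold higher in high CO2. Without both libraries that stood apart it was -1.85. By FPKM it ranked between 172 and 265 among all genes in the low CO2 libraries and between 45 and 53 in the high CO2 libraries.

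The second Heat shock protein 16 gene, NO20G02150, had 228, 228 and 264 FPKM in the low CO2 libraries, against 803, 736 and 653 FPKM in the high CO2 libraries. It was lower than NO20G02130 in every library, and its lowest high CO2 library was still well above its highest low CO2 library. Its means were 240 ± 20.7 FPKM in low CO2 and 731 ± 75.2 FPKM in high CO2 (SD, n = 3 each). The log2 fold change was -1.66 ± 0.12 (SE), or -1.74 without both libraries that stood apart.

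NO18G01280, a class I gene and the least abundant member, had 75.7, 58.9 and 57.5 FPKM in the low CO2 libraries, against 128, 135 and 154 FPKM in the high CO2 libraries. Its highest value within low CO2 and its highest value within high CO2 were those of the 2 libraries that stood apart. Its log2 fold change was -1.18 ± 0.20 (SE), and this became -1.39 without low CO2 replicate 1, -1.06 without high CO2 replicate 3 and -1.28 without both. At this depth it rested on 350 to 373 counts per low CO2 library and 692 to 788 per high CO2 library.

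NO08G01140, the other class I gene, had 598, 567 and 528 FPKM in the low CO2 libraries, against 927, 929 and 1040 FPKM in the high CO2 libraries. Its groups were the closest of the 4 members, with means of 564 ± 34.9 FPKM in low CO2 and 965 ± 64.6 FPKM in high CO2 (SD, n = 3 each). The log2 fold change was -0.83 ± 0.14 (SE). It was -0.95 without low CO2 replicate 1, -0.74 without high CO2 replicate 3 and -0.86 without both. Of all genes tested, 2.17% had a more negative fold change. The authors' deposited table of 217 genes lists the other 3 members, with log2 fold changes of -1.81 for NO20G02130, -1.65 for NO20G02150 and -1.17 for NO18G01280, and leaves NO08G01140 out.

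The median log2 fold change of the 4 members was -1.42, against 0.01 over all genes tested. Genes resembling the members in length or abundance lay somewhat below 0 as well. The 1698 genes whose length falls within the members' range had a median of -0.05, and the 1384 genes whose mean FPKM falls within it had a median of -0.16, with 68.1% of them negative. Choice of scale moved the members little once the median of all genes was taken into account. Relative to that median, which was 0.15 in TPM (a level scaled to gene length that sums to 1000000 over all genes of a library) and 0.01 in the fit, NO20G02130 stood at -1.71 in TPM and -1.83 in the fit, and NO08G01140 at -0.84 in TPM and -0.85 in the fit.

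Together the 4 genes summed to 1855, 1918 and 1973 TPM in the low CO2 libraries, against 4609, 4418 and 4270 TPM in the high CO2 libraries. The means were 1916 ± 58.8 TPM in low CO2 and 4433 ± 170 TPM in high CO2 (SD, n = 3 each), and the pool was 2.31-fold larger in high CO2. The make-up of this pool differed between the groups along with its size. NO08G01140 was the most abundant member in all 3 low CO2 libraries, with 46.6%, 44.7% and 40.7% of the summed TPM, against 29.04%, 30.3% and 33.1% in the high CO2 libraries. NO20G02130 held 29.7%, 32.8% and 34.5% in the low CO2 libraries, against 41.8%, 41.2% and 41.2% in the high CO2 libraries, where it was the most abundant in all 3. Neither gene's shares overlapped between the groups.

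**Figure D2:**
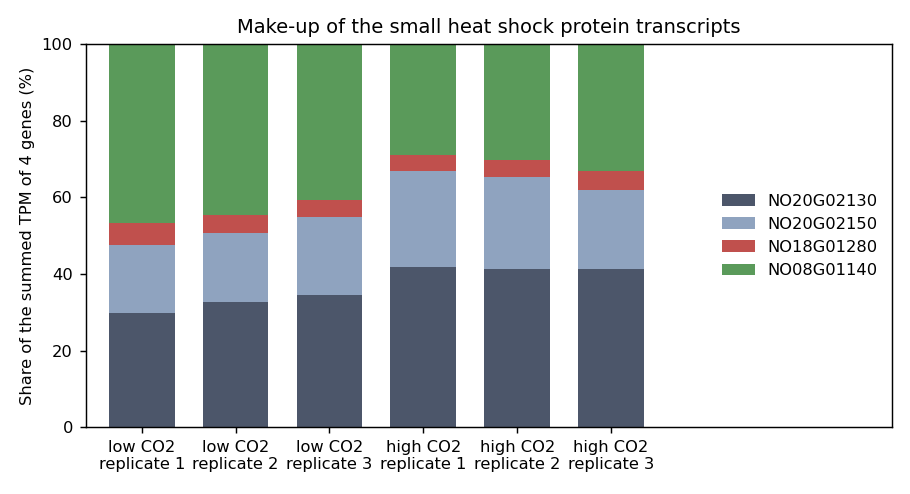
Share of the summed TPM of the 4 small heat shock protein genes held by each gene, in percent, for each low CO2 and each high CO2 library. NO08G01140 holds 40.7% to 46.6% in low CO2 and 29.04% to 33.1% in high CO2, and NO20G02130 holds 29.7% to 34.5% in low CO2 and 41.2% to 41.8% in high CO2.

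NO20G02150 came next and NO18G01280 last in all 6 libraries. NO20G02150 held 17.8% to 20.3% in low CO2 and 20.8% to 25.2% in high CO2, a narrow gap without overlap. NO18G01280 held 4.44% to 5.90% in low CO2 and 4.01% to 4.91% in high CO2, with overlap. In both groups the TPM ranges of members next to each other in the order did not overlap.

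The Heat shock protein 16 genes stood in nearly the same ratio to each other in both groups. The ratio of NO20G02150 to NO20G02130 in TPM was 0.598, 0.546 and 0.590 in the low CO2 libraries, against 0.603, 0.583 and 0.504 in the high CO2 libraries, and the groups overlapped. The counts of these genes are less certain than those of the class I genes, as given below. Their ratio may therefore depend on how reads were split between them. The ratio of NO08G01140 to NO20G02130 was 1.57, 1.36 and 1.18 in the low CO2 libraries, against 0.695, 0.736 and 0.803 in the high CO2 libraries, without overlap. The ratio of NO20G02150 to NO18G01280 was 3.02, 3.86 and 4.59 in the low CO2 libraries, against 6.29, 5.46 and 4.23 in the high CO2 libraries, and the groups overlapped through high CO2 replicate 3. Between the class I genes, the ratio of NO18G01280 to NO08G01140 was 0.127, 0.104 and 0.109 in the low CO2 libraries, against 0.138, 0.145 and 0.148 in the high CO2 libraries, a small gap without overlap. These ratios use the same contrast as the choice of members and are given without a test.

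Likeness of pattern was measured as the root-mean-square difference of log2 CPM (counts scaled to the size of the library), each gene centred on its own mean over the 6 libraries, so that 0 would be the same pattern. The Heat shock protein 16 genes differed by 0.121 and the class I genes by 0.196. For the Heat shock protein 16 genes this value, too, may depend on how reads were split between them. Across the pairs the difference ran from 0.324, between NO20G02150 and NO18G01280, to 0.498, between NO20G02130 and NO08G01140. The libraries that stood apart entered the pattern differently for each pair. Low CO2 replicate 1 exceeded the mean of low CO2 replicates 2 and 3 by 0.56 for NO18G01280 and 0.32 for NO08G01140 in log2 CPM, and by 0.15 and 0.14 for NO20G02130 and NO20G02150. High CO2 replicate 3 exceeded the mean of high CO2 replicates 1 and 2 by 0.32 for NO18G01280 and 0.25 for NO08G01140, and differed from it by 0.08 for NO20G02130 and -0.11 for NO20G02150. Their part in the likeness was not tested. Like the ratios, these differences take in the contrast on which the members were chosen.

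All 4 members carry the KEGG orthology HSP20, and 5 genes of the deposited tables carry it. The fifth is NO20G02140, described as 22.0 kDa heat shock protein, whose locus number lies between those of the Heat shock protein 16 genes. It was scarce, with 3.83, 0.94 and 1.48 FPKM in the low CO2 libraries, against 11.6, 11.1 and 2.49 FPKM in the high CO2 libraries, and its groups overlapped. Its log2 fold change was -2.05 ± 0.72 (SE), with an adjusted p of 0.195 in edgeR's quasi-likelihood test with Benjamini-Hochberg adjustment over all genes. Without low CO2 replicate 1 it was -2.91 with an adjusted p of 0.0311 in edgeR, and without both libraries that stood apart -3.33 with 2.69e-08, where 19.4% of all genes were called lower.

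The counts of these 3 consecutive genes are less certain than those of the class I genes. NO20G02130 lists 6 transcripts, 4 of them assembled from the reads, and NO20G02150 lists 11, 10 of them assembled, and the assembled ones share 1 assembled locus. Such sharing was found for 2.64% of genes tested. All 3 genes had counts that were not whole numbers in all 6 libraries, while NO18G01280 and NO08G01140 had whole counts in all 6. The effective length of NO20G02130 was 907 ± 60.2 bases in low CO2 and 975 ± 4.51 bases in high CO2 (SD, n = 3 each), and its fold in favour of high CO2 was 3.12 by FPKM. In low CO2 replicates 1, 2 and 3 this length was 965, 912 and 845 bases. The TPM of NO20G02130 rose across them, at 552, 629 and 681, while its CPM did not, at 393, 354 and 353. Its shares and ratios in TPM carry this difference. Summed, the 3 genes had 743, 645 and 691 CPM in the low CO2 libraries, against 2392, 2278 and 2315 CPM in the high CO2 libraries. The log2 fold change of the sum, which does not depend on how reads were split among the 3 genes, was -1.75 ± 0.11 (SE). The summed counts were still not whole, as with 3218.31 in low CO2 replicate 1 and 4520.39 in low CO2 replicate 3. The sum therefore still depends on the split with a further gene, ClpB1, given below. This sum was added after the data were seen.

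The gene with the next lower locus number, NO20G02120, is described as the chaperone protein ClpB1, a disaggregase that pulls proteins out of aggregates. It had 137, 136 and 134 FPKM in the low CO2 libraries, against 224, 217 and 209 FPKM in the high CO2 libraries, with no overlap. It fell in low CO2, with a log2 fold change of -0.69 ± 0.10 (SE) and an adjusted p of 0.0222 in edgeR's quasi-likelihood test. Its counts were also not whole numbers, as with 1901.68 in low CO2 replicate 1 and 3459.19 in high CO2 replicate 1, except in low CO2 replicate 2. Added to those of the 3 genes above, its counts came to whole numbers in every library, to within rounding. Counts were thus split between ClpB1 and these genes, and its call is not separate from them. How far the split affects the call was not tested. The call did not hold without any one of the high CO2 libraries or without low CO2 replicate 2 or 3, where its adjusted p in edgeR ran from 0.0589 to 0.152, and it was 0.00278 without low CO2 replicate 1. All genes from NO20G02120 to NO20G02150 in locus number order are thus described as chaperones, and each had a negative fold change. Of all genes tested, 48.6% had one. NO20G02130 and NO20G02150 were chosen on this contrast, so nothing is read from this run. The genes beside the run, not described as chaperones, stood at -0.35 (NO20G02110) and -0.45 (NO20G02160), with adjusted p of 0.472 and 0.117 in edgeR. Farther out, NO20G02100 stood at 0.78, NO20G02170 at 0.24 and NO20G02180 at -0.23.

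**Figure D3:**
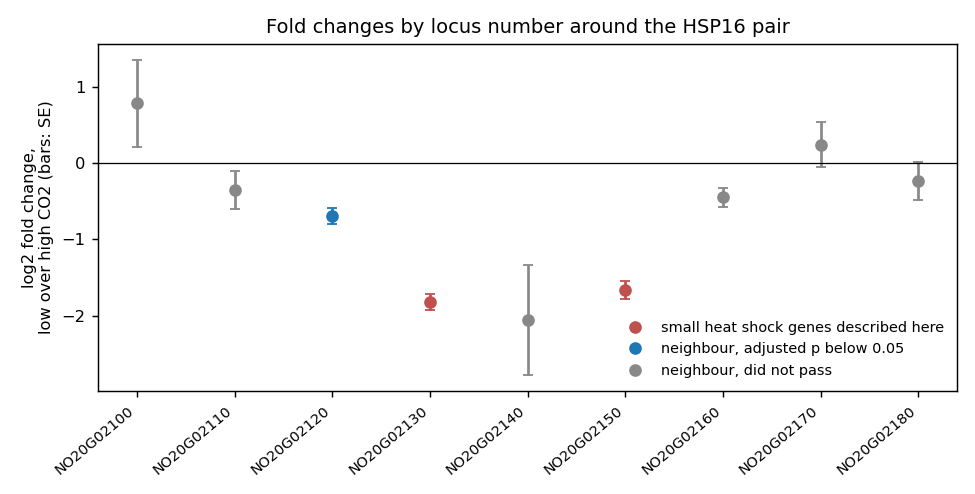
Log2 fold change, low over high CO2, with its SE, of the Heat shock protein 16 genes (red), the gene between them and the 3 genes on either side by locus number, blue where edgeR's adjusted p was below 0.05 and grey where it was not. The Heat shock protein 16 genes, at -1.82 and -1.66, have NO20G02140 at -2.05 between them and ClpB1 at -0.69 beside them.

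Taking 3 genes on each side of every member by locus number gave 19 genes that are no members, and 1 of the 18 tested, ClpB1, was called by edgeR, beside 2.12% of all genes. At an unadjusted p below 0.05 there were 4, where 18.6% of all genes were. DESeq2, which called 6.51% of all genes, called ClpB1 and NO18G01250, a neighbour of NO18G01280 named here after its values were seen, at a log2 fold change of -0.57 and an adjusted p of 0.0474. In edgeR NO18G01250 had an adjusted p of 0.110, also at -0.57. None of the neighbours of the class I genes is described as a chaperone, and some carry no description. Locus numbers were used for this order, since positions on the genome were not analysed here.

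The wider chaperone and quality-control system was described by 9 lists of genes, picked by words in their descriptions. They held 140 genes other than the members, of which 138 were tested. By edgeR 3 fell, 0 rose and 135 did not pass, so 2.17% were called, close to the 2.12% of all genes. Their median log2 fold change was -0.05, against 0.01 over all genes. At an unadjusted p below 0.05 there were 30, where 18.6% of all genes tested had one, a share that also stands behind the unadjusted counts of each list. The list genes that another tool alone called are named here after their values were seen. DESeq2 added a fall of the HSP90 co-chaperone Cdc37 (NO14G02250, -0.73) and rises of the DnaJ protein NO10G02680 (0.64), the chaperonin subunit NO14G00900 (0.66) and the protease NO26G00550 (0.70). Limma, which called 1.89% of all genes, added a rise of the DnaJ protein NO10G03740 (0.90). With both libraries that stood apart left out, 35 fell and 27 rose, where 19.4% and 17.2% of all genes were called lower and higher. Of the 15 uncalled genes among the most abundant of each list, 10 were called in that setting, 7 lower and 3 higher in low CO2.

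**Figure D4:**
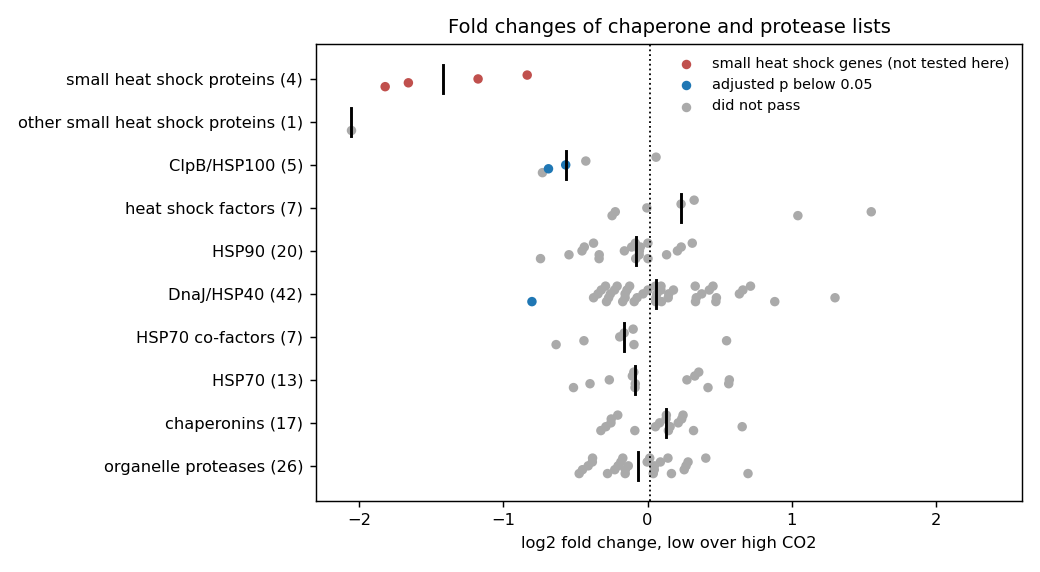
Log2 fold change, low over high CO2, of the 4 small heat shock protein genes (red) and of the tested genes of each chaperone and protease list, with 1 point per gene, blue where edgeR's adjusted p was below 0.05 and grey where it was not; black bars are medians, the dotted line is the median of all genes at 0.01, and numbers of genes stand in brackets. Blue points are 2 ClpB genes at -0.69 and -0.57 and 1 DnaJ gene at -0.80, and the list medians run from -2.05 for the single other small heat shock protein to 0.23 for the heat shock factors.

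In the ClpB/HSP100 list, 2 of 5 genes fell and 3 did not pass, with a list median of -0.57. The second to fall, NO16G01260, described as ClpB 1, had 131, 133 and 143 FPKM in the low CO2 libraries, against 199, 188 and 187 FPKM in the high CO2 libraries. Its log2 fold change was -0.57 ± 0.10 (SE), with an adjusted p of 0.0388 in edgeR. That call was made without low CO2 replicate 1 (0.00630 in edgeR) and lost without each of the other 5 libraries in turn, at 0.0884 to 0.221. It was also lost with limma, at an adjusted p of 0.0669, and in edgeR with a trend on gene length removed, at 0.0508. Summed over the list, the level was 620 ± 72.0 TPM in low CO2 and 838 ± 89.6 TPM in high CO2 (SD, n = 3 each).

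The DnaJ list, named for co-chaperones that deliver clients to HSP70 and stimulate its ATPase, also takes in some genes described otherwise. Of its 42 genes, 1 fell and 41 did not pass in edgeR. At an unadjusted p below 0.05 there were 10, and the list median was 0.06. DESeq2 called 1 as fallen and 1 as risen, and limma 0 as fallen and 1 as risen. The gene that fell, NO12G00410, described as DnaJ homolog subfamily B member 4, had 147, 212 and 189 FPKM in the low CO2 libraries, against 306, 293 and 323 FPKM in the high CO2 libraries. The groups did not overlap, and the lowest value was that of low CO2 replicate 1. Its log2 fold change was -0.80 ± 0.12 (SE), with an adjusted p of 0.0250 in edgeR, which ran from 0.0762 to 0.137 without any one library other than low CO2 replicate 1 and was 0.0648 with limma. The most abundant DnaJ genes, NO17G01940 and NO23G01280, had log2 fold changes of 0.00 and -0.26, with adjusted p of 0.993 and 0.321 in edgeR.

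The HSP70 list is named for the ATP-driven chaperones that take over clients from small heat shock proteins. It also takes in NO01G04720, described as a tRNA-modifying enzyme. None of its 13 genes passed in edgeR. Of these, 3 had an unadjusted p below 0.05, DESeq2 called 0, and the list median was -0.08. The most abundant, NO23G00640, had 500, 451 and 460 FPKM in the low CO2 libraries, against 357, 362 and 398 FPKM in the high CO2 libraries. Its groups did not overlap, with low CO2 higher, and its log2 fold change was 0.27 with an adjusted p of 0.324 in edgeR. The luminal binding protein NO15G01500, the HSP70 of the endoplasmic reticulum, stood at -0.11 with 0.626 in edgeR.

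The HSP70 co-factors gave 0 calls among 7 genes in edgeR, with 1 at an unadjusted p below 0.05 and a median of -0.16. The GrpE gene NO19G01420 had 231, 80.6 and 97.6 FPKM in the low CO2 libraries, against 203, 212 and 210 FPKM in the high CO2 libraries. Low CO2 replicate 1 was above every high CO2 library, and the other low CO2 libraries were below them. Its log2 fold change was -0.63 ± 0.42 (SE) with an adjusted p of 0.447 in edgeR, and without low CO2 replicate 1 it was -1.35 with 0.00134, where 17.2% of all genes were called. Another GrpE gene, NO04G01590, had 99.4, 94.0 and 90.6 FPKM in the low CO2 libraries, against 90.2, 108 and 93.8 FPKM in the high CO2 libraries. Its groups overlapped, and it stood at -0.10 with an adjusted p of 0.730 in edgeR. A further GrpE gene, NO20G01620, is named here after its values were seen. It had 72.2, 71.6 and 71.5 FPKM in the low CO2 libraries, against 81.1, 77.3 and 77.6 FPKM in the high CO2 libraries. Its groups did not overlap, and it stood at -0.19 with an adjusted p of 0.442 in edgeR.

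None of the 20 genes of the HSP90 list, which also takes in co-chaperones of HSP90, passed in edgeR. Of these, 3 had an unadjusted p below 0.05, DESeq2 called 1, and the median was -0.08. NO03G01460, described as heat shock protein 81-1, an HSP90 name, had 796, 627 and 637 FPKM in the low CO2 libraries, against 554, 565 and 597 FPKM in the high CO2 libraries. Every low CO2 library was above every high CO2 library, and the log2 fold change was 0.21 with an adjusted p of 0.532 in edgeR. The other abundant entry, NO05G02560, is described as a threonine dehydratase and stood at -0.54 with 0.124 in edgeR. Without low CO2 replicate 1 it was -0.62 with 0.0312 in edgeR, where 17.2% of all genes were called. Without both libraries that stood apart it was -0.46 with 4.84e-06 in edgeR, where 19.4% of all genes were called lower. Its counts were not whole, and came to whole numbers in every library when added to those of NO05G02550. That gene, described as HSP 90-alpha, is named here after its values were seen. The values of NO05G02560 thus depend on how counts were split between these genes.

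The heat shock factor list, the transcription factors that are known to drive small heat shock protein genes, held 8 genes, of which 7 were tested and 0 called by edgeR, with 1 at an unadjusted p below 0.05. Its median was 0.23, and the list also took in NO17G02320 and NO17G02330, which are described as an isoprenoid pathway enzyme and a membrane protease. NO22G01460, described as heat shock factor protein 2, had 634, 536 and 523 FPKM in the low CO2 libraries, against 758, 701 and 694 FPKM in the high CO2 libraries, and NO09G00420 had 333, 291 and 261 FPKM in the low CO2 libraries, against 218, 232 and 223 FPKM in the high CO2 libraries. Their groups did not overlap, in opposite directions. Their log2 fold changes were -0.22 and 0.32, with adjusted p of 0.307 and 0.317 in edgeR.

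Chaperonins form ring-shaped folding chambers, and organelle proteases degrade proteins that cannot be refolded. The chaperonin list, which takes in some genes described otherwise, and the protease list gave 0 calls in edgeR among 17 and 26 tested genes. At an unadjusted p below 0.05 there were 2 chaperonin and 5 protease genes, DESeq2 called 1 in each list, and the medians were 0.13 and -0.07. The most abundant chaperonin genes, NO05G01850 and NO11G02260, stood at -0.25 and -0.09, with adjusted p of 0.373 and 0.734 in edgeR. The most abundant proteases, FtsH3 (NO02G03120) and a ClpP subunit (NO20G01520), stood at 0.14 and -0.20, with 0.536 and 0.603 in edgeR.

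Among 5280 described genes that averaged 5 FPKM or more, the 3 most like each member in pattern were not described as chaperones. The measure takes in the contrast on which the members were chosen, so genes with a like fall rank as close. All those named below were lower in low CO2 without overlap in FPKM, as 11.8% of all genes tested were. Their log2 fold changes ran from -1.74 for NO20G00140 to -0.69 for NO24G00900. NO20G02130 was closest to NO20G00140, described as a glutaredoxin arsenate reductase, at a root-mean-square difference of 0.203 log2 CPM over the 6 libraries. NO26G00040, a putative aldolase class 2 protein, followed at 0.247, and the uncharacterized NO26G00220 at 0.310, against a median of 0.939 over all candidates. These same 3 genes were the closest to NO20G02150, at 0.231 for NO20G00140, 0.212 for NO26G00040 and 0.265 for NO26G00220.

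NO18G01280 was most like NO26G01010, pyruvate, phosphate dikinase, an enzyme that regenerates phosphoenolpyruvate, at 0.101. NO19G02010, a hydroxylamine reductase, stood at 0.104, and NO05G02070, an iron-sulfur subunit of photosynthetic electron transport's cytochrome b6-f complex, at 0.121. NO08G01140 was most like NO06G00590, a UPF0587 family protein, at 0.0611. Next came NO24G00900, the ubiquitin-conjugating enzyme E2 27, at 0.0921, and NO09G00590, mitochondrial fission process protein 1, at 0.0977. The median over all candidates was 0.668 for NO18G01280 and 0.494 for NO08G01140. No gene was among the 3 closest to both a Heat shock protein 16 gene and a class I gene.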

How the data were processed

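RNA-seq tables of 6 libraries, 3 per group, were used, with groups and replicate numbers from the titles. The submitters' processing notes name edgeR, featureCounts, Picard, STAR, StringTie and Trim Galore; their roles, the genome build and the annotation are not given in the sources used here. Per the file headers, each deposited table holds FPKM, TPM and expected counts per gene. The expected counts deposited by the authors are not normalized, and 17.5% to 19.8% per library are not whole within 0.004. The authors' TPM sums to 1000000 in each library, and the authors' FPKM is scaled to effective length and library size. The authors' deposited comparison gives log2 fold changes, p-values and adjusted p-values for 217 genes.

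Counts were rounded, filtered with filterByExpr (9244 of 10633 genes), TMM-scaled and compared in edgeR 4.0.16 (R 4.3.3) by its quasi-likelihood test, low over high CO2, with Benjamini-Hochberg adjustment over all 9244 genes and calls at 0.05. The test was checked on simulated counts. CPM was computed from the rounded counts with TMM. The SE of a log2 fold change was taken as its absolute value divided by the square root of the test's F statistic. The biological coefficient of variation was 23.1%. Alternatives were RLE scaling, no filter, only genes averaging 50 counts or more, a replicate block, DESeq2 1.42.0, limma 3.58.1 on log2(FPKM + 1), a length trend removed, each library left out, and both libraries that stood apart left out. Members, lists and tests were chosen with earlier results of these data known. Named genes were the members, called genes of the lists and neighbours, the 2 most abundant genes of each list, the gene numbered between the Heat shock protein 16 genes, and the 3 genes most like each member. List patterns match words of descriptions and take in some genes with another function. The treatment of strand and of reads shared by near-identical genes is not given in the sources used here.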

Additional observations from a re-analysis of the deposited data

How the results depend on the processing

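The 4 members kept a negative log2 fold change under every alternative run. It ranged from -1.87 to -1.64 for NO20G02130, where the largest shift came with limma on log2(FPKM + 1), at -1.64. For NO20G02150 it ranged from -1.75 to -1.59, for NO18G01280 from -1.39 to -1.06 and for NO08G01140 from -0.95 to -0.74.

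Counts of called genes depended on the setting. Over all genes, 196 were called, against 590 with DESeq2, 3402 without both libraries that stood apart, and 18 to 1610 with 1 library left out at a time. Leaving out low CO2 replicate 1 gave 1610, low CO2 replicate 2 gave 48 and low CO2 replicate 3 gave 50, while leaving out high CO2 replicate 1 gave 35, high CO2 replicate 2 gave 18 and high CO2 replicate 3 gave 68. Of the list genes 3 fell, against 2 with a length trend removed, 1 with limma, 35 without both libraries and 0 to 18 with 1 left out. None rose in edgeR, against 3 with DESeq2, 1 with limma, 27 without both and 0 to 7 with 1 left out. Of the neighbours 1 was called, against 2 with DESeq2, 7 without both and 0 to 5 with 1 left out. Why these counts moved was not tested.

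A fit with the replicate number as a block called 21 genes (0.227%), 0 list genes and 0 neighbours, with members at -1.82, -1.66, -1.19 and -0.84. For libraries with the same number, deviations from their group mean had correlations of -0.36, 0.08 and -0.43. Within a group such deviations cancel out, so these correlations depend on each other. They therefore cannot decide whether libraries with the same number were handled together, and this was not tested otherwise. ClpB1, ClpB 1 and DnaJ B4 had adjusted p of 0.234, 0.302 and 0.227 in edgeR under the block. The alternative with another pseudocount was not run, since counts were given.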
